A study of Mus musculus with 12 samples.

Results

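Progression of the cell cycle through G1 depends on cyclin-dependent kinases (CDKs), which phosphorylate the retinoblastoma protein and so release E2F transcription factors to switch on the genes of S phase. Inhibitors of the INK4 family bind CDK4 and CDK6, whereas those of the CIP/KIP family act on cyclin-CDK complexes more broadly. The p53 transcription factor adds an arm that responds to stress. It is destroyed by the ubiquitin ligase MDM2, is protected when p19ARF binds MDM2, and activates its own set of genes, Cdkn1a and Mdm2 among them.

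The expression of 9 genes of this circuit was examined in murine hepatoblastoma (HB) cells. The INK4 inhibitors were Cdkn2a, Cdkn2b and Cdkn2c, and the CIP/KIP inhibitors were Cdkn1a and Cdkn1b. The p53 axis was represented by Trp53, by Mdm2 and by Ccng1, which encodes the p53-induced cyclin G1, and the retinoblastoma protein by Rb1. The genes were found by symbol, once each, among 45706 genes with a deposited TPM, an abundance that takes transcript length into account and adds up to 1000000 per library, and all 9 passed the filter on low values. They were chosen by their TPM levels in these same libraries together with their roles, and the fall of Cdkn2a in sorted cells was part of that choice. Differences between sorted and unsorted cells are therefore given as descriptions, with no test, for these 9 genes. The difference between the hypoxia responses of Cdkn2a is made of those same values and is treated likewise. Its tests under hypoxia use the same libraries too, so they are not independent of that choice. The counts of genes passing these tests include it.

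BN1 cells came from a liver tumor of an FVB/N mouse driven by mutant β-catenin (B) and mutant NRF2 (N), in which 4 guide RNAs had directed Cas9 to exon 2 of Cdkn2a. All 12 libraries carry the label Cdkn2a KO, so every comparison was made within a Cdkn2a-targeted background and no library had an untargeted locus. BN1-Tie2-EGFP cells are a pool of stable transfectants of this single line that carry EGFP under the promoter of the endothelial receptor gene Tie2. Unsorted cells were kept in normoxia at 21% oxygen (UN) or in 1% oxygen for 2 days (UH). EGFP+ cells were sorted after 2 days of hypoxia and then grown for about 10 days in normoxia (SN), and some of these were put back into 1% oxygen for 2 days (SH). Each group had 3 libraries. SN and UN cells therefore differed in their past exposure to hypoxia and in time in culture as well as in the sort, and these cannot be told apart. The labels do not say whether replicates were separate cultures, so the p-values below measure the spread between these libraries.

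UN replicate 1 stood apart from the other UN libraries for several of the genes below and for stromal markers. Its Col3a1 level was 1960 TPM, against 222 and 173 TPM in UN replicates 2 and 3. Some of the results that it affected are given with and without it, and the others include it. Of the markers of hepatocytes, Alb did not exceed 4.23 TPM in any library and Hnf4a did not exceed 4.98 TPM, whereas the keratin gene Krt18 lay between 63.5 and 157 TPM. Its partner Krt8 had means of 65.5 TPM in UN and 4.78 TPM in SN cells. The cholangiocyte marker Krt19 had means of 62 TPM in UN, 481 TPM in UH and 0.837 TPM in SN cells. Of the other cholangiocyte markers, Krt7 went the other way, with means of 2.07 TPM in UN and 5.48 TPM in SN cells. Sox9 libraries of UN and SN overlapped, and Epcam did not exceed 0.31 TPM in any library. Among leukocyte markers, Ptprc and Adgre1 were at or below 0.121 and 0.0208 TPM, but Cd68 reached 55.9 TPM in SH cells, and the 7 markers summed to 5.03 to 9.69 TPM in UN and 58.6 to 62.6 TPM in SH libraries. Among endothelial markers, Pecam1 and Cdh5 were at or below 0.484 and 0.0967 TPM, but Eng reached 43.6 and Flt1 27.98 TPM in UH cells. The 9 markers summed to 11.3 to 45.5 TPM in UN, 53.04 to 69.6 TPM in UH, 4.57 to 5.78 TPM in SN and 13.5 to 16.2 TPM in SH libraries. Tek, the gene of Tie2, was higher in sorted cells, with means of 0.133, 0.156, 2.49 and 3.04 TPM in UN, UH, SN and SH cells. Vwf had means of 0.273, 0.229, 0.103 and 1.26 TPM in these groups, and Pecam1 0.025, 0.0578, 0.0669 and 0.359 TPM. In the tests described below, 6 of the 9 could be tested. In SN vs UN 1 was higher and 1 lower, beside 13% and 20.9% of all genes, and in SH vs UH 3 were higher and 2 lower, beside 28.3% and 13.4%. The part of these markers in the results below was not tested. In bulk RNA, fewer cells that express a gene and less of its RNA in each cell cannot be told apart.

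The tests were made with limma on log2(TPM + 1), and a gene passed at a Benjamini-Hochberg adjusted p under 0.05 over the 18909 genes tested. In UH vs UN, 8 of the 9 genes passed, 4 higher and 4 lower, where 46.4% of all genes passed, 13% higher and 33.5% lower. In SH vs SN, 7 of 9 passed, 4 higher and 3 lower, against 41% of all genes, 21.5% higher and 19.5% lower. The libraries of the groups compared did not overlap for 8 of the 9 genes in UH vs UN and for 9 in SH vs SN, and this was so for 51.1% and 56.8% of all genes. The median log2 difference of all genes was −0.19 for UH vs UN and 0.03 for SH vs SN. The plot of TPM by group shows each library.

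**Figure D1:**
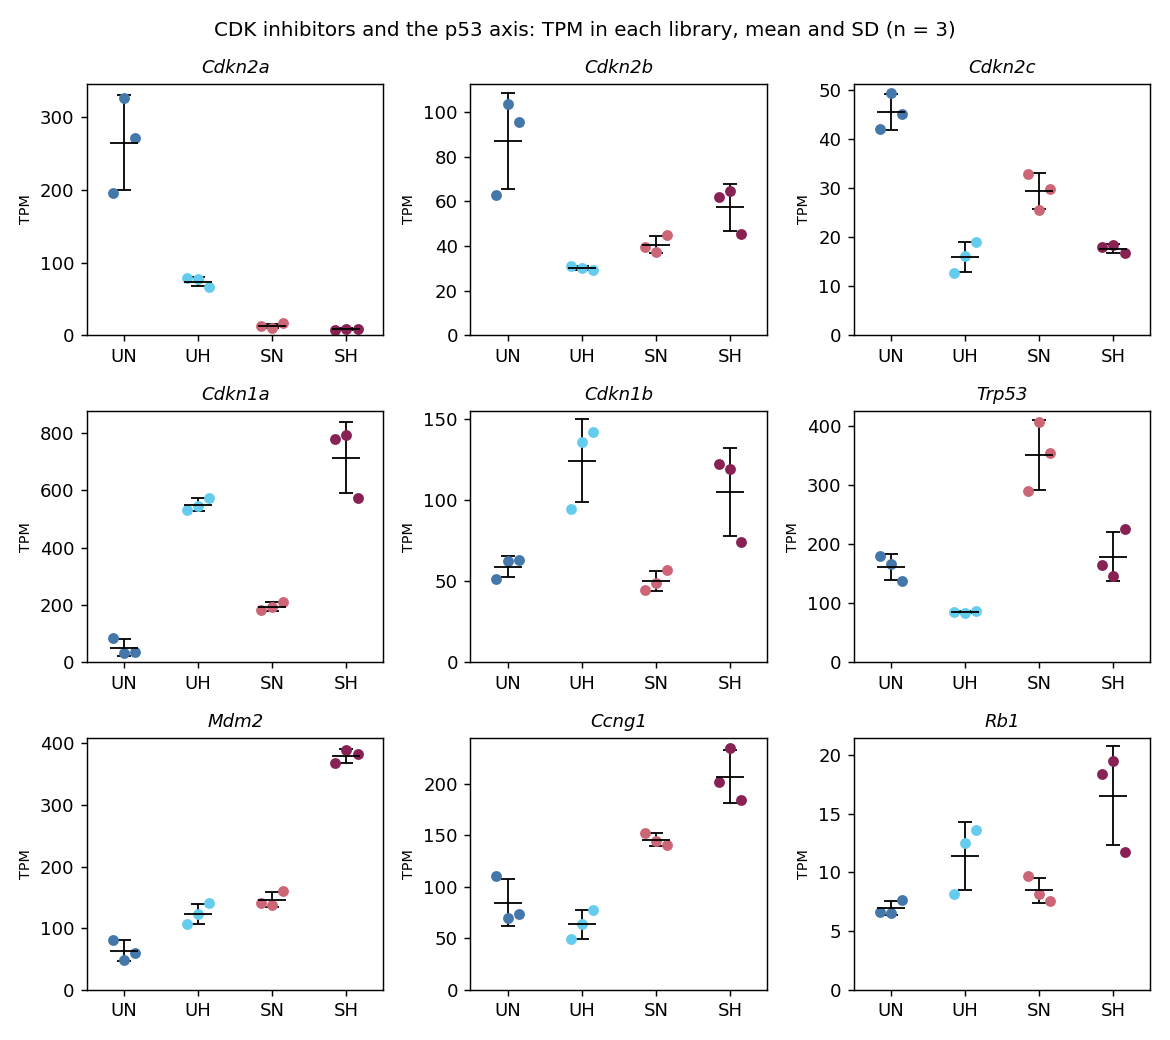
TPM (vertical axes, from 0) of the 9 genes in the 12 libraries. Points are libraries, and bars give the mean and SD of 3 libraries in UN, UH, SN and SH cells. Cdkn2a stepped down from a mean of 265 TPM in UN cells to 8.46 TPM in SH cells, whereas Cdkn1a and Mdm2 had their highest means in SH cells, at 713 and 380 TPM.

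Cdkn2a (ENSMUSG00000044303) was examined first because it is the targeted gene. It lies on the minus strand of chromosome 4 of GRCm38 from 89274471 to 89294653 and encodes p16INK4A and p19ARF, which start at different first exons and read the shared exon 2 in different frames. Exon 2 lies from 89276645 to 89276985. Exon 1 of the p16INK4A transcript lies from 89281986 to 89282192 and exon 1 of the p19ARF transcript from 89294334 to 89294653. The supplementary sequences for BN1 cells list 8 mutant forms of exon 2, of which 7 could be compared in full with the 336 exon bases amplified. These lacked a net 105 to 181 bases, and in 6 of 7 the loss was not a multiple of 3. The forms that were each a single clean deletion are printed on the coding strand, as examples of what the targeting left of the shared exon. They were not chosen for abundance, and the shares of the forms are not given here. The paper counts more unique mutations in each cell line than the 8 forms listed, which its supplement describes as the most common. It reports point mutations in BN1 cells as well. On its blots these cells had mutant or truncated p19ARF and no p16INK4A. Capitals mark the 6 bases on each side of the join.
BN1-8 (bases chr4:89276741-89276921 missing, 181 in all): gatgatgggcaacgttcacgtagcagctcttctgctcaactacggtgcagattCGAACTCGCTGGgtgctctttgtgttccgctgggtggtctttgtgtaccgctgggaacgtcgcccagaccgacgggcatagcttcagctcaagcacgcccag
BN1-26 (bases chr4:89276795-89276900 missing, 106 in all): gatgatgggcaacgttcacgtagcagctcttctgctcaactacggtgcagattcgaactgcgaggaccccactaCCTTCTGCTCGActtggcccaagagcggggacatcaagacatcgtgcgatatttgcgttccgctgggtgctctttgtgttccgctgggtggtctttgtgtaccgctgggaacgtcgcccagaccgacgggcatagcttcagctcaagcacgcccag
Such deletions leave transcripts that still count toward the TPM of Cdkn2a, and a gene-level TPM separates neither p16INK4A from p19ARF transcripts nor mutant from intact ones. The level therefore does not check the label Cdkn2a KO, and it does not measure functional protein.

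Cdkn2a RNA was abundant in UN cells, at 196, 327 and 272 TPM, and was the highest of the 9 genes there. In UH cells it was at 78.7, 77.1 and 66.4 TPM. In SN cells it was at 12.6, 10.4 and 16.5 TPM, and in SH cells at 7.37, 9.32 and 8.69 TPM. Every library of each group lay below every library of the preceding one, so that Cdkn2a moved from first to last place among the 9 genes between UN and SH cells. The mean was 20.1-fold lower in SN than in UN cells, a log2 difference of −4.22 ± 0.19 (SE), and 8.76-fold lower in SH than in UH cells, a log2 difference of −2.99 ± 0.19 (SE). Without UN replicate 1 the former was −4.42.

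Hypoxia lowered Cdkn2a in unsorted cells by a log2 difference of −1.80 (SE 0.19, adjusted p = 1.57e-05, limma), a 3.58-fold fall of the mean. In sorted cells the log2 difference was −0.57 (SE 0.19, adjusted p = 0.0336, limma), and this call was lost when any one of SN replicates 1 and 3 or SH replicates 1 and 3 was left out, with adjusted p between 0.0628 and 0.139 (limma). The responses differed by 1.23 on the log2 scale (SE 0.27), with the smaller fall in the sorted cells, where the level was already low. Both hypoxia tests use libraries on which the choice of Cdkn2a rested and give no independent support.

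Cdkn2b (ENSMUSG00000073802) encodes the INK4 inhibitor p15INK4B and lies beside Cdkn2a, from 89306299 to 89311039 on chromosome 4. It was at 62.9, 104 and 95.5 TPM in UN cells, 30.9, 29.99 and 29.1 TPM in UH cells, 39.7, 37.5 and 44.9 TPM in SN cells and 62.0, 64.6 and 45.5 TPM in SH cells. The order of the groups thus differed from that of Cdkn2a, with the lowest level in UH rather than SH cells. Hypoxia lowered Cdkn2b in unsorted cells, with a log2 difference of −1.48 (SE 0.18, adjusted p = 4.21e-05, limma). In sorted cells the log2 difference was 0.47 (SE 0.18, adjusted p = 0.0547, limma), with no overlap of SH and SN libraries, and it passed at adjusted p = 0.0130 and 0.0471 when UN replicate 1 or 2 was left out of the shared fit. The difference between the responses was 1.95 (SE 0.25, adjusted p = 0.000467, limma). Cdkn2b was lower in SN than in UN cells by a log2 difference of −1.06, and higher in SH than in UH cells by 0.90.

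The TPM of Cdkn2a exceeded that of Cdkn2b by a ratio of 3.04 ± 0.17 (SD, n = 3) in UN cells and 2.47 ± 0.16 in UH cells. The ratio was 0.321 ± 0.045 in SN cells and 0.151 ± 0.037 in SH cells, so that Cdkn2b was the more abundant of the pair in every sorted library.

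Cdkn2c (ENSMUSG00000028551; chromosome 4, 109660876 to 109667189), which encodes p18INK4C, was at 42.2, 49.5 and 45.1 TPM in UN cells and 12.8, 16.1 and 18.9 TPM in UH cells. It was at 32.9, 25.5 and 29.9 TPM in SN cells and 17.9, 18.5 and 16.7 TPM in SH cells. Hypoxia lowered it in both backgrounds, with log2 differences of −1.47 (SE 0.14, adjusted p = 7.45e-06, limma) in unsorted and −0.70 (SE 0.14, adjusted p = 0.00217, limma) in sorted cells. The fall was smaller in sorted cells by 0.78 (adjusted p = 0.0185, limma), a call lost with median-of-ratios scaling (adjusted p = 0.0527) and without UN replicate 2 (adjusted p = 0.0507). SH and UH libraries overlapped.

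Cdkn1a (ENSMUSG00000023067; chromosome 17, 29090976 to 29100727), which encodes p21CIP1, rose most of the 9 genes under hypoxia. It was at 86.5, 32.6 and 36.6 TPM in UN cells, where replicate 1 was the highest, and at 530, 545 and 574 TPM in UH cells. SN cells had 181, 192 and 211 TPM, and SH cells had 776, 790 and 572 TPM. Every hypoxic library lay above every normoxic one, and every SN library above every UN library. The log2 difference was 3.52 (SE 0.28, adjusted p = 1.86e-06, limma) in UH vs UN, a 10.6-fold rise of the mean, or 15.9-fold without UN replicate 1. In SH vs SN it was 1.85 (SE 0.28, adjusted p = 0.000307, limma), a 3.66-fold rise from a level that was 3.75-fold higher to begin with, or 5.63-fold without UN replicate 1. The response was smaller in sorted cells by −1.66 (SE 0.40, adjusted p = 0.0129, limma), and by −2.10 without UN replicate 1. SH and UH libraries overlapped, and their log2 difference of 0.36 became 0.14 with median-of-ratios scaling.

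Cdkn1a is the best known target of p53, which binds elements built from paired CATG cores. The RefSeq promoter table for GRCm38.p6 held windows, from 250 bases before to 50 after a transcript start, for 8 of the 9 genes, 11 windows in all. The letters CATGNNNNNNCATG, read on both strands, occurred in 1 of these, before the upstream of the Cdkn1a starts, and in 0.712% of all 32851 windows. The 250 bases before that start, chr17:29090729-29090978 on the plus strand, are printed because Cdkn1a had the largest response. Capitals mark the 20 bases from −51 to −32 that hold the match.
Cdkn1a upstream start: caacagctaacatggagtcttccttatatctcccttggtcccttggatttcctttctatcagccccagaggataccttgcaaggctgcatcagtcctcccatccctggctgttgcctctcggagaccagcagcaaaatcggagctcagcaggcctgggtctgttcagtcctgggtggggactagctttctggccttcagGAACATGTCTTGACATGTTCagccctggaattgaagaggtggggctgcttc
The letters ACGTG, the core of the sequence that hypoxia-inducible factors bind, were found in windows of Cdkn2c and Trp53 and in 19.6% of all windows. CACGTG, which contains them, was found in windows of the same genes and in 7.15% of all.

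Cdkn1b (ENSMUSG00000003031; chromosome 6, 134920401 to 134925513), which encodes p27KIP1, was at 51.4, 62.5 and 62.9 TPM in UN cells and 94.9, 136 and 142 TPM in UH cells. It was at 44.5, 48.8 and 56.8 TPM in SN cells and 122, 119 and 73.9 TPM in SH cells. Hypoxia raised it by log2 differences of 1.05 (SE 0.20, adjusted p = 0.00125, limma) in unsorted and 1.03 (SE 0.20, adjusted p = 0.0018, limma) in sorted cells. The responses differed by −0.02 (SE 0.29, adjusted p = 0.97, limma), and SN and UN libraries overlapped, as did SH and UH libraries.

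The 5 inhibitors summed to 509 ± 67.7 TPM (SD, n = 3) in UN, 794 ± 42.4 TPM in UH, 328 ± 26.8 TPM in SN and 901 ± 160 TPM in SH cells. Cdkn2a made up 51.5% ± 6.2 (SD, n = 3) of this sum in UN cells, but 9.37% ± 1.28 of it in UH cells. In the sorted groups it made up 3.99% ± 0.64 (SN) and 0.963% ± 0.234 (SH). The share of Cdkn1a was 10.8% ± 7.7 (UN) and 69.3% ± 1.6 (UH) in unsorted cells, the former 19.7% in UN replicate 1 and 6.41% ± 1.05 (n = 2) without it, and stood at 59.4% ± 1.5 (SN) and 79.1% ± 0.6 (SH) in sorted ones. Cdkn1a was thus the most abundant of the 5 in all groups but UN, including the sorted cells that had spent about 10 days in normoxia.

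**Figure D2:**
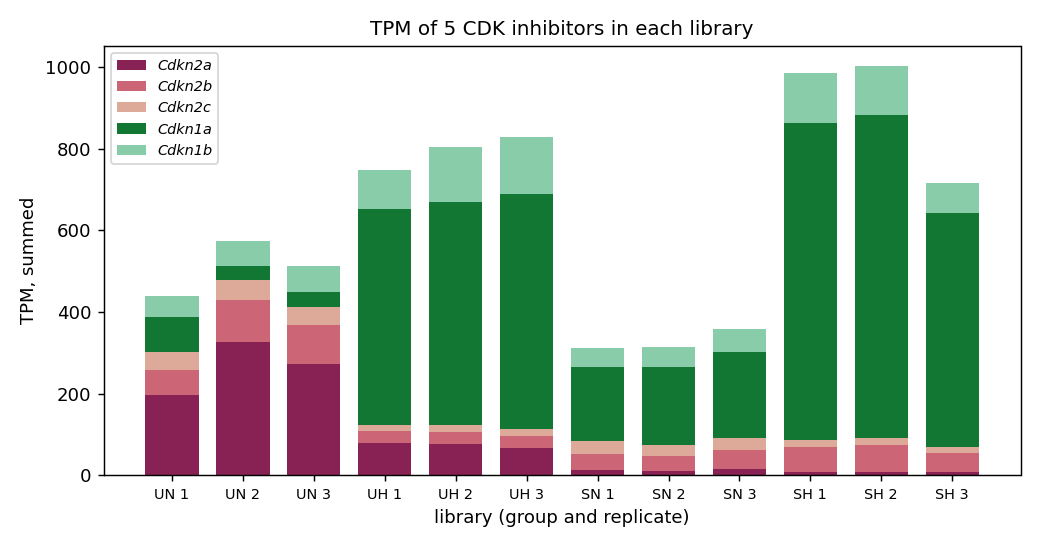
Summed TPM (vertical axis, from 0) of 5 CDK inhibitors in each of the 12 libraries (horizontal axis, group and replicate). The Cdkn2a segment makes up 44.7% to 56.8% of the bar in UN libraries and 0.748% to 1.21% in SH libraries, and the Cdkn1a segment 78.7% to 79.8% in SH libraries.

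Trp53 (ENSMUSG00000059552; chromosome 11, 69580359 to 69591873), the gene of p53 itself, was at 181, 167 and 138 TPM in UN cells and 86.2, 83.6 and 87.8 TPM in UH cells. It was at 290, 408 and 354 TPM in SN cells and 165, 147 and 226 TPM in SH cells. Hypoxia lowered Trp53 RNA in unsorted cells, with a log2 difference of −0.90 (SE 0.17, adjusted p = 0.000947, limma), which became −0.54 with adjusted p = 0.0503 under median-of-ratios scaling. In sorted cells the log2 difference was −0.98 (SE 0.17, adjusted p = 0.000695, limma), and the responses differed by −0.08 (SE 0.24, adjusted p = 0.843, limma). Trp53 was higher in sorted cells at either oxygen level, by 1.11 in SN vs UN and by 1.03 in SH vs UH, and SN libraries were the highest of all. These values concern RNA, whereas p53 activity is set largely by the stability of its protein.

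Mdm2 (ENSMUSG00000020184; chromosome 10, 117688875 to 117710758) moved in the opposite direction to Trp53 under hypoxia. It was at 81.4, 48.5 and 59.8 TPM in UN cells, 107, 123 and 140 TPM in UH cells, 141, 138 and 159 TPM in SN cells and 367, 390 and 383 TPM in SH cells. SH libraries lay far above all others. Its log2 difference under hypoxia was 0.98 (SE 0.16, adjusted p = 0.000408, limma) in unsorted cells and 1.37 (SE 0.16, adjusted p = 4.99e-05, limma) in sorted cells. The difference between these responses was 0.40 (SE 0.23, adjusted p = 0.229, limma). Between sorted and unsorted cells the log2 difference was 1.23 in normoxia and 1.62 in hypoxia. The ratio of Mdm2 to Trp53 TPM was 0.392 ± 0.089 (SD, n = 3) in UN cells and 0.425 ± 0.078 in SN cells, and 1.44 ± 0.18 in UH cells and 2.19 ± 0.48 in SH cells.

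Ccng1 (ENSMUSG00000020326; chromosome 11, 40748552 to 40755311) was at 111, 69.6 and 73.2 TPM in UN cells, with replicate 1 the highest, and at 49.1, 63.4 and 77.7 TPM in UH cells. It was at 152, 145 and 141 TPM in SN cells and 202, 236 and 184 TPM in SH cells. UN and UH libraries overlapped (log2 difference −0.40, SE 0.19, adjusted p = 0.105, limma). SH libraries lay above SN libraries by 0.50 (SE 0.19, adjusted p = 0.0557, limma), which passed without UN replicate 1 or UH replicate 1 or 3 (adjusted p between 0.0211 and 0.0420, limma). The difference between the responses was 0.90 (adjusted p = 0.0339, limma), but with median-of-ratios scaling it was 0.56 (adjusted p = 0.142). It was also lost without UH replicate 1 or 2, any SN library, or SH replicate 1 or 2, with adjusted p between 0.0591 and 0.0841 (limma). Every sorted library lay above every unsorted one, with log2 differences of 0.81 in normoxia and 1.71 in hypoxia.

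Rb1 (ENSMUSG00000022105; chromosome 14, 73183673 to 73325822) was the lowest of the 9 genes in every group but SH. It was at 6.62, 6.56 and 7.66 TPM in UN cells, 8.12, 12.5 and 13.6 TPM in UH cells, 9.66, 8.17 and 7.53 TPM in SN cells and 18.3, 19.5 and 11.7 TPM in SH cells. Hypoxic libraries lay above the normoxic ones of the same background. The log2 difference in SH vs SN was 0.87 (SE 0.21, adjusted p = 0.00691, limma). In UH vs UN it was 0.62 (SE 0.21, adjusted p = 0.0337, limma), and this call was lost without any one of the 3 UN libraries or of UH replicates 2 and 3, with adjusted p between 0.0509 and 0.117 (limma).

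**Figure D3:**
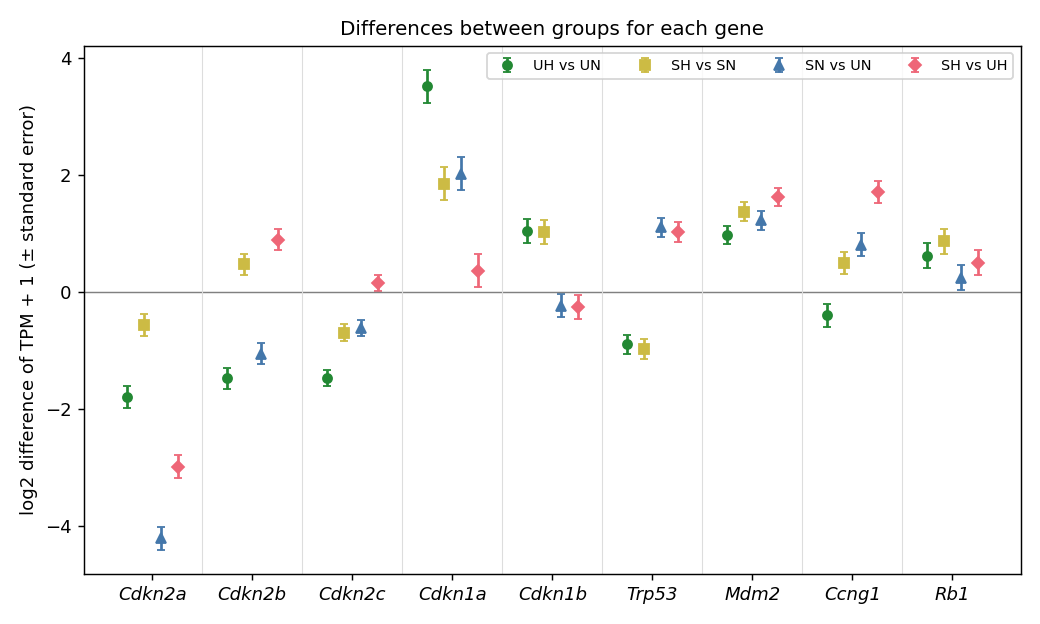
Log2 difference of TPM + 1 (vertical axis) with its standard error for the 9 genes in 4 comparisons. Cdkn2a has the most negative values, −4.22 for SN vs UN and −2.99 for SH vs UH, and Cdkn1a the most positive, 3.52 in UH vs UN.

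The difference between the hypoxia responses passed for 4 of the 8 genes other than Cdkn2a, against 22% of all genes (17.4% more positive and 4.51% less positive in sorted cells), with a median over all genes of 0.25. Cdkn2b, Cdkn2c and Ccng1 responded more positively in sorted cells and Cdkn1a less positively. With median-of-ratios scaling, which brought the median over all genes to 0.02, 2 of the 8 passed, Cdkn2b and Cdkn1a. In SN vs UN the libraries did not overlap for 7 of the 9 genes and in SH vs UH for 5, and this was so for 49% and 51.7% of all genes. In SN vs UN, 4 of the 7 were higher in sorted cells (Cdkn1a, Trp53, Mdm2 and Ccng1) and 3 lower (the INK4 genes). SN vs UN and UH vs UN share the UN libraries, and SH vs UH and SH vs SN share the SH libraries, so these columns of values are not independent of each other.

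Levels can be ordered within a group because TPM is corrected for length. In UN cells the order was Cdkn2a, Trp53, Cdkn2b, Ccng1, Mdm2, Cdkn1b, Cdkn1a, Cdkn2c and Rb1, and each gene from Cdkn2b to Cdkn1a overlapped the next. In UH cells it was Cdkn1a, Cdkn1b, Mdm2, Trp53, Cdkn2a, Ccng1, Cdkn2b, Cdkn2c and Rb1, with overlap between Cdkn1b and Mdm2, between Cdkn2a and Ccng1 and between Cdkn2c and Rb1. Trp53 led in SN cells, followed by Cdkn1a, Mdm2 and Ccng1, the last pair overlapping. In SH cells Cdkn1a led, followed by Mdm2, Ccng1 and Trp53, the last pair overlapping, and Cdkn2a came last, below every Rb1 library.

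A further 3 inhibitor genes were listed. Cdkn2d, which encodes the INK4 inhibitor p19INK4D, was at 56.1 ± 0.9 TPM (SD, n = 3) in UN cells and 52.7 ± 2.5 in UH cells, and rose from 45.3 ± 2.3 in SN cells to 75.4 ± 17 in SH cells (log2 difference 0.70, adjusted p = 0.0017, limma). Cdkn1c, which encodes p57KIP2, was low throughout, with means that fell in the same order of groups as those of Cdkn2a down to SN cells. It was at 2.13, 6.76 and 7.03 TPM in UN cells and 1.95, 1.58 and 2.27 TPM in UH cells, whose libraries overlapped (log2 difference −0.99, adjusted p = 0.0223, limma, but 0.0638 with median-of-ratios scaling). It did not exceed 1.36 TPM in any sorted library, and SN and SH libraries overlapped (SN vs UN −1.56, adjusted p = 0.00261, limma, and −2.002 without UN replicate 1). Cdkn3, a CDK-associated phosphatase gene, fell under hypoxia in unsorted cells, from 20.6 ± 3.4 to 6.20 ± 1.83 TPM (log2 difference −1.60, adjusted p = 5.4e-05, limma), and rose in sorted cells, from 6.49 ± 0.92 to 15.99 ± 2.7 TPM (1.18, adjusted p = 0.000692, limma).

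Beyond Cdkn1a, Mdm2 and Ccng1, a list of 29 further p53 target genes was examined, and all were tested. In UH vs UN, 5 rose, 8 fell and 16 did not pass, that is 17.2% higher and 27.6% lower, near the 13% and 33.5% of all genes, and the median log2 difference of −0.23 was near the −0.19 of all genes. With median-of-ratios scaling the split turned, with 9 higher and 5 lower and a median of 0.09. In SH vs SN, 15 rose, 1 fell and 13 did not pass, with a median of 0.58 beside 0.03 for all genes, of which 21.5% were higher and 19.5% lower, and with the same scaling 18 rose and 2 fell. Sesn2, which encodes a stress-induced regulator of mTOR signalling, rose in both, by 1.56 in UH vs UN (SE 0.18, adjusted p = 2.92e-05, limma) and by 2.04 in SH vs SN (SE 0.18, adjusted p = 6.67e-06, limma). Of the genes that fell in unsorted cells, the largest decreases were those of the death receptor gene Fas, of Aen and of Ei24, at −1.19, −1.02 and −1.02.

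In sorted cells Perp, a p53 target involved in cell death, rose most, followed by Sesn2 and by Pmaip1, which encodes the BH3-only protein NOXA. Perp was at 1.64, 2.45 and 2.19 TPM in SN cells and 16.3, 20.3 and 11.1 TPM in SH cells, a log2 difference of 2.42 (SE 0.24, adjusted p = 1.4e-05, limma), while UN and UH libraries overlapped. Pmaip1 rose from 26.0 ± 5.7 to 77.7 ± 9.5 TPM (SD, n = 3; adjusted p = 0.000746, limma) and was at 26.1 ± 10.3 TPM in UN and 13.7 ± 2.2 TPM in UH cells. The difference between the responses passed for 13 of the 29 genes, all more positive in sorted cells (0 less positive at an unadjusted p under 0.05, limma). Of all genes, 17.4% were more and 4.51% less positive. With median-of-ratios scaling 11 were more and 0 less positive, and without UN replicate 1 the counts were 14 and 1.

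Between sorted and unsorted cells, 11 of the 29 p53 targets were higher and 2 were lower in normoxia (SN vs UN, where 33.9% of all genes passed, 13% as higher and 20.9% as lower). In SH vs UH, 21 were higher and 0 lower (41.7% of all genes, 28.3% higher and 13.4% lower). By limma, 0 were lower at an unadjusted p under 0.05, and with median-of-ratios scaling 1 was lower. Pidd1, which encodes a death domain protein of the PIDDosome, was at 8.09 ± 2.75 TPM in UN, 5.16 ± 1.18 in UH, 21.8 ± 2.9 in SN and 53.7 ± 3.2 in SH cells. The log2 difference in SH vs UH was 3.17 (SE 0.20, adjusted p = 4.43e-07, limma). Zfp365 followed at 2.86 and Pmaip1 at 2.42. Perp went the other way in normoxia, with a log2 difference of −2.07 in SN vs UN (adjusted p = 5.5e-05, limma).

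**Figure D4:**
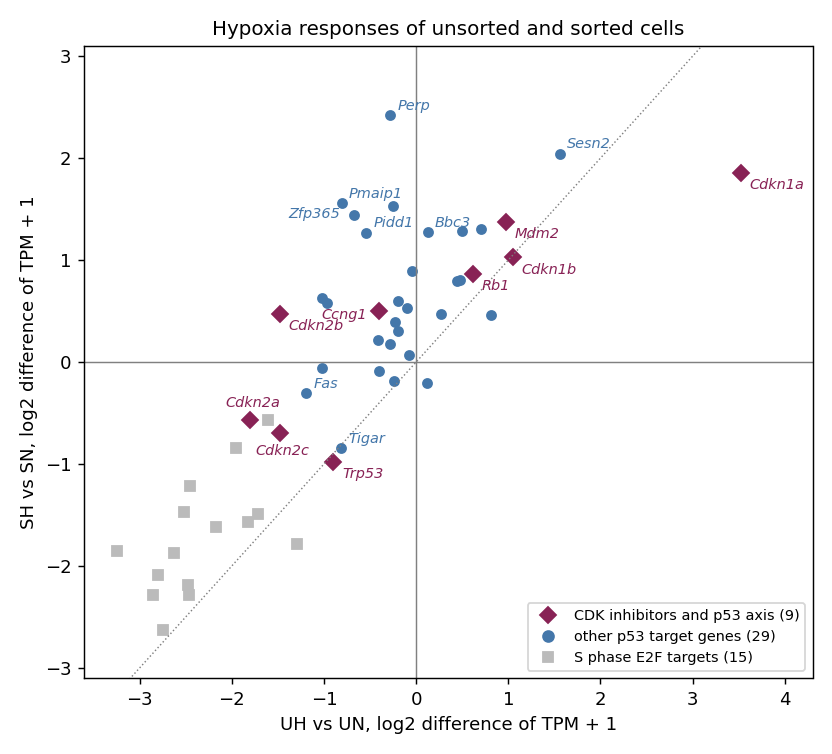
Response to hypoxia in unsorted cells (UH vs UN, horizontal axis) and sorted cells (SH vs SN, vertical axis), both as log2 differences of TPM + 1 from libraries that are not shared. Each point is a gene, and the dotted line marks equal responses. Cdkn1a lies to the right of the line at 3.52 and 1.85, Cdkn2b crosses from −1.48 to 0.47, most p53 target genes lie above the line, and the S phase genes lie in the lower left.

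Of 14 regulators and relatives of p53, 0 rose (0 at an unadjusted p under 0.05, limma) and 7 fell in UH vs UN, beside 13% and 33.5% of all genes, which became 3 and 3 with median-of-ratios scaling. In SH vs SN 3 rose and 2 fell, or 21.4% and 14.3%, beside 21.5% and 19.5% of all genes. In SH vs UH, 8 were higher and 0 lower (0 unadjusted), beside 28.3% and 13.4% of all genes, which became 5 and 2 with that scaling. Chek1, the gene of a replication checkpoint kinase, fell in both hypoxic groups, by −2.15 in unsorted and −1.98 in sorted cells (adjusted p = 2.43e-05 and 6.77e-05, limma). Ppm1d, which encodes the p53-induced phosphatase WIP1, was at 14.3 ± 2.4 TPM in UN, 9.22 ± 1.05 in UH, 13.8 ± 0.4 in SN and 43.1 ± 4.0 in SH cells. It thus rose under hypoxia in sorted cells (1.57, adjusted p = 5.92e-06, limma) and fell in unsorted cells (−0.57, adjusted p = 0.00478, limma). Trp53bp1, which encodes a p53-binding repair protein, fell in UH vs UN by −1.13 and was higher in SH than in UH cells by 1.45. Hipk2, the gene of a kinase that phosphorylates p53, was higher in SN than in UN cells by 1.23 (adjusted p = 0.0126, limma). It was at 18.9 TPM in UN replicate 1 and at 7.96 and 7.93 TPM in UN replicates 2 and 3.

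Downstream of the inhibitors, 15 S phase genes that E2F factors control fell together under hypoxia. All 15 passed as lower in UH vs UN, with a median log2 difference of −2.47, and all 15 in SH vs SN, with a median of −1.78, where 33.5% and 19.5% of all genes passed as lower. Rrm2, which encodes a subunit of ribonucleotide reductase, fell from 99.8 ± 12.7 to 9.59 ± 0.64 TPM in unsorted cells, and Tk1, the gene of thymidine kinase, from 169 ± 20.1 to 27.4 ± 9.1 TPM in sorted cells. The helicase gene Mcm2 fell by −2.85 and −2.28 in the respective backgrounds. In SN vs UN, 4 were higher and 2 lower, beside 13% and 20.9% of all genes. In SH vs UH, 12 were higher and 0 lower (0 at an unadjusted p under 0.05, limma), beside 28.3% and 13.4%. Mcm4 was higher in sorted cells by 1.10 in normoxia and 1.28 in hypoxia. The fall was smaller in sorted cells for 8 of the 15, for 4 with median-of-ratios scaling and for 6 without UN replicate 1. Of all genes, 17.4% had a more positive response in sorted cells in the main fit.

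Among 22 genes of cyclins, CDKs, pocket proteins and E2F factors, 2 rose and 14 fell in UH vs UN. Of all genes 13% rose and 33.5% fell there, and with median-of-ratios scaling the 22 gave 4 and 14. In SH vs SN 1 rose and 14 fell, beside 21.5% and 19.5% of all genes. Ccnd1, the gene of cyclin D1, a partner of the kinases that INK4 proteins inhibit, was at 164 ± 18.9 TPM in UN, 32.9 ± 3.1 in UH, 468 ± 102 in SN and 115 ± 18.3 in SH cells. Hypoxia lowered it by −2.28 in unsorted and −1.998 in sorted cells, and it was higher in sorted cells by 1.49 in normoxia and 1.77 in hypoxia (adjusted p at most 4.72e-05 in each, limma). Ccnd2 behaved differently. It rose from 148 ± 5.6 to 433 ± 96.4 TPM in unsorted cells (1.52, adjusted p = 2.22e-05, limma) and was at 90.5 ± 16.5 TPM in SN and 115 ± 17 TPM in SH cells (0.35, adjusted p = 0.123, limma). The cyclin E1 gene Ccne1 fell by −2.58 and −2.13, and Skp2, which encodes the ubiquitin ligase subunit that targets p27KIP1, by −1.99 and −1.36, in UH vs UN and SH vs SN. The repressor genes E2f7 and E2f8 were higher in SH than in UH cells by 1.49 and 1.39.

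Of 20 known regulators of the Ink4/Arf locus, 5 rose and 5 fell in UH vs UN, beside 13% and 33.5% of all genes, and these counts became 13 and 5 with median-of-ratios scaling. In SH vs SN, 8 rose and 3 fell, beside 21.5% and 19.5% of all genes. Sorted cells had 6 higher and 3 lower in normoxia, beside 13% and 20.9%, and 8 higher and 2 lower in hypoxia, beside 28.3% and 13.4%. Ezh2, the gene of the Polycomb methyltransferase that represses the locus, was at 94.8 ± 13.0 TPM in UN, 34.1 ± 8.2 in UH, 111 ± 0.4 in SN and 101 ± 8.0 in SH cells, with a fall in UH vs UN of −1.47 (adjusted p = 1.52e-05, limma). Its log2 difference in SN vs UN was 0.23 (adjusted p = 0.285, limma). Kdm6b, the gene of a demethylase of the mark that EZH2 lays down, rose by 1.23 in unsorted and 1.17 in sorted cells under hypoxia. Tbx2, which encodes a repressor of the locus, was at 0.609 ± 0.060 TPM in SN and 4.93 ± 1.01 TPM in SH cells (1.87, adjusted p = 1.01e-05, limma). Id1 fell under hypoxia in both backgrounds, by −1.45 and −1.64. Ets2, an activator, was higher in SN than in UN cells by 1.51 (adjusted p = 0.00155, limma).

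The genes around Cdkn2a were examined to see whether the low level in sorted cells extended along the chromosome. Of 7 neighbours listed, 6 were tested and 5 of these were lower in SN than in UN cells, with a median of −0.60, where 20.9% of all genes were lower and their median was −0.06. The log2 differences were −0.63 for Mtap, which lies 125 kb from Cdkn2a and salvages methionine, −0.56 for Klhl9, −1.43 for Hacd4, −0.57 for Focad and −0.94 for Mllt3, all smaller in size than the −4.22 of Cdkn2a. In SH vs UH, 2 of the 6 were lower, Mllt3 by −1.24 and Klhl9 by −0.59, beside 13.4% of all genes, and 3 with median-of-ratios scaling. Mtap had 0.25 and Focad 0.24 there, with overlapping libraries, beside −2.99 for Cdkn2a. In SN vs UN, Elavl2, on the far side of Cdkn2b, had −0.23 (adjusted p = 0.628, limma), and Dmrta1 did not exceed 0.236 TPM in any library. Transcripts from both sides of Cdkn2a were present in SN cells, at 32.1 to 37.4 TPM for Mtap and 37.5 to 44.9 TPM for Cdkn2b. The cause of the low Cdkn2a level was not tested.

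Mtap resembled Cdkn2a and Cdkn2b in unsorted cells, with a fall of −1.83 in UH vs UN (SE 0.12, adjusted p = 3.08e-07, limma), beside −1.80 and −1.48. Its levels were 54.7 ± 2.8 TPM in UN, 14.7 ± 2.1 in UH, 34.9 ± 2.7 in SN and 17.6 ± 1.2 in SH cells. It also fell in SH vs SN, by −0.95 (SE 0.12, adjusted p = 6.35e-05, limma), where Cdkn2b had 0.47.

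**Figure D5:**
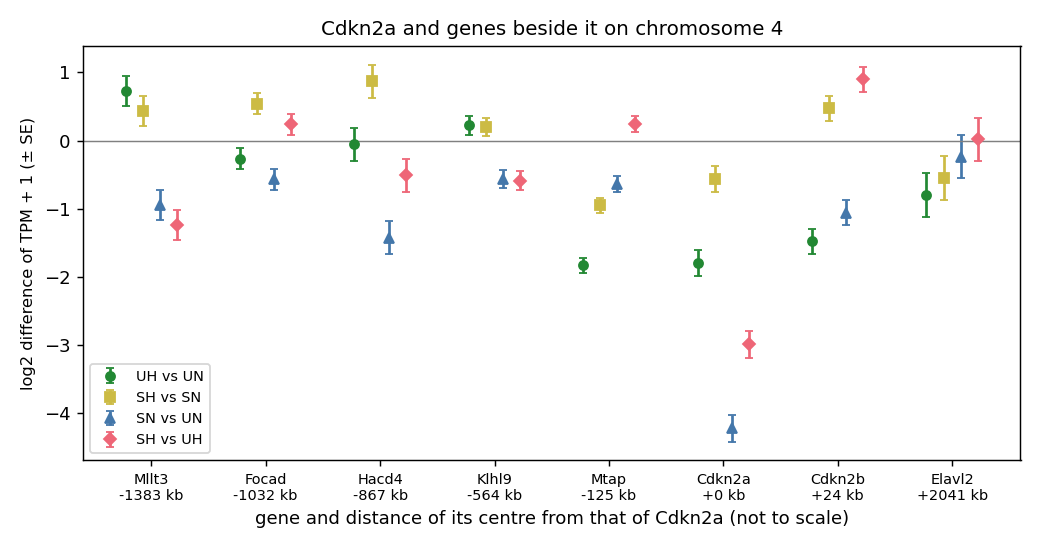
Log2 difference of TPM + 1 with its standard error (vertical axis) in 4 comparisons for Cdkn2a, Cdkn2b and the 6 tested neighbours, in chromosome order (horizontal axis, not to scale, with distances from Cdkn2a in kb). The SN vs UN value reaches −4.22 at Cdkn2a and lies between −1.43 and −0.23 at the neighbours.

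Likeness to other genes was measured as Pearson's r of log2(TPM + 1) over the 12 libraries, which fall into 4 groups, so that r mostly reflects the group means. The genes most like Cdkn2a were Ptgr1, Pdgfra, Lgi2, Bhlhb9 and Bex4, with r between 0.991 and 0.995. Pdgfra, a mesenchymal marker, had means of 142, 28.4, 1.59 and 0.313 TPM in UN, UH, SN and SH cells. Cdkn2b, the neighbour, had an r of 0.354 with Cdkn2a. The genes most like Cdkn2b were 1110012L19Rik, E2f5, Cep72, Prrx2 and Asb4 (r 0.953 to 0.959).

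Markers of mesenchymal cells were mostly lower in sorted cells, beside the fall of Cdkn2a. Of 10 listed, 9 were tested, of which 6 were lower and 0 higher in SN vs UN, beside 20.9% and 13% of all genes. In SH vs UH, 7 were lower and 0 higher, beside 13.4% and 28.3%. In neither was a marker higher at an unadjusted p under 0.05 (0 by limma). These counts include UN replicate 1 and were not made without it. Dcn was at 116 to 126 TPM in SN libraries, and at 349, 86.2 and 81.3 TPM in UN replicates 1, 2 and 3. Pdgfrb was at 40.3 to 47.7 TPM in SN libraries, and at 74.6, 31.1 and 28.4 TPM in those UN replicates. Col1a2 lay between 126 and 1011 TPM in unsorted libraries and did not exceed 0.562 TPM in sorted ones. The summed TPM of the list was 2453 to 6661 in UN, 10770 to 13322 in UH, 1282 to 1324 in SN and 2710 to 3263 in SH libraries, most of it Vim and collagen genes. The sum was higher in the hypoxic group of each background, but single markers went both ways. In UH vs UN, with UN replicate 1 included, 4 were higher and 3 lower, beside 13% and 33.5% of all genes. In SH vs SN, 2 were higher and 4 lower, beside 21.5% and 19.5%. Vim and Col1a1 had higher means under hypoxia in both backgrounds, and Pdgfra, Dcn and Pdgfrb had lower ones. Of the 12 hepatocyte and hepatoblast markers, 11 were tested. In SN vs UN 7 were lower and 1 was higher, beside 20.9% and 13% of all genes. Afp had means of 1.83 TPM in UN and 9.20 TPM in SN cells, and of 1.22 TPM in UH and 5.07 TPM in SH cells. Dlk1 had means of 58.7 TPM in UN and 0.389 TPM in SN cells. The 12 markers summed to 129 to 309 TPM in UN and 119 to 169 TPM in SN libraries, the latter mostly Krt18, with a mean of 126 TPM. The part of these markers in the differences of Cdkn2a and the other genes was not tested.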

How the data were processed

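RNA from 12 libraries of BN1-Tie2-EGFP cells (UN, UH, SN and SH, 3 each, grouped by label) was prepared with a stranded mRNA kit and sequenced in pairs. The authors processed the reads with nf-core/rnaseq 3.12.0 against mm10, per the submitters' notes, and deposited gene TPM from Salmon. The annotation release was not given in the sources used here. TPM sum to 1000000 in each library, so depth is unknown and precision rests on the replicates.

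For the present report, limma 3.58.1 (R 4.3.3) fitted the 4 group means on log2(TPM + 1) for the 18909 genes with a mean of at least 0.1 TPM, with trended moderation and Benjamini-Hochberg adjustment. The added 1 makes the differences of low genes smaller. Same-numbered libraries were not paired, since their residuals correlated between −0.116 and 0.141. Coordinates are from GENCODE M21 (98.8% of identifiers matched) and promoters from RefSeq. Tables used Python 3.11.15 and pandas 2.3.3. The fit was tested on simulated data. The genes and lists were chosen with earlier results of these data known. All 9 genes, the other inhibitors and neighbours were named, and from other lists up to 3 genes per direction that passed with a fold above 2 and no overlap. Not all are printed. Their values in further groups are given for comparison. Alternatives were a pseudocount of 0.1, other filters, scaling, a replicate block, fits of the compared groups alone, untrended moderation and leaving out each library. Counts of lists with scaling or without UN replicate 1, values of the 9 genes without it, and tests of 2 groups without a library of the others, were added after the data were seen. No untargeted BN cells were analysed here.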

Additional observations from a re-analysis of the deposited data

Results flagged for a closer look

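The response to hypoxia differed between sorted and unsorted cells, by the test of the difference itself (limma), for 4 of the 8 genes other than Cdkn2a. The log2 difference between the responses was 1.95 for Cdkn2b, 0.78 for Cdkn2c and 0.90 for Ccng1, all more positive in sorted cells, and −1.66 for Cdkn1a. Of these, only Cdkn2b and Cdkn1a also passed with median-of-ratios scaling.

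The same test passed for other genes named in the text. Among p53 targets it gave 2.70 for Perp, 2.37 for Pmaip1, 2.12 for Zfp365, 1.81 for Pidd1, 1.65 for Ei24, 0.96 for Aen and 0.88 for Fas, and among p53 regulators 2.15 for Ppm1d and 1.11 for Trp53bp1. Among cell cycle genes it gave 2.78 for Cdkn3, 0.79 for Cdkn2d, 1.39 for Rrm2 and −1.17 for Ccnd2. Among regulators and neighbours of Cdkn2a it gave 1.33 for Ezh2, 1.66 for Tbx2, 0.88 for Mtap and 0.81 for Focad. Positive values mean a response that was more positive in sorted cells, and the median over all genes was 0.25.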

How the results depend on the processing

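Cdkn2a kept its direction in all 4 comparisons under every alternative run. Its log2 difference in SH vs UH moved to −3.21 with median-of-ratios scaling, and with 1 library left out it stayed between −3.07 and −2.90, and in SN vs UN between −4.42 and −4.06. With 1 library of any group left out, 7 to 8 of the 9 genes passed in UH vs UN and 6 to 9 in SH vs SN. In SH vs SN all 9 passed without UN replicate 1, with median-of-ratios scaling, with a filter at a mean TPM of at least 1 and with only the compared groups in the fit. In the difference of the responses, 2 of the 8 genes other than Cdkn2a passed with median-of-ratios scaling. With the replicate block, 7 of the 9 genes passed under hypoxia in unsorted cells and 7 in sorted cells. Cdkn2a left aside, Cdkn2b, Cdkn2c and Cdkn1a still passed in the difference of the responses. The block lost the calls of Rb1 in UH vs UN (adjusted p = 0.0536, limma) and of Ccng1 in that difference (adjusted p = 0.0583, limma). Same-numbered libraries are not known to be pairs. Without a filter on low values, the calls lost were those of Rb1 in UH vs UN, Cdkn2a in SH vs SN and Ccng1 in the difference of the responses (adjusted p = 0.0551, 0.0538 and 0.0566). Differences of responses near 0 changed sign. With 1 library left out, that of Cdkn1b ranged from −0.201 to 0.214 and that of Trp53 from −0.256 to 0.0535. That of Rb1 became −0.061 with median-of-ratios scaling, and that of Cdkn1b became 0.0742, 0.0564, 0.0867, 0.0741 and 0.214 without UN replicate 1, UH replicates 2 and 3, SN replicate 3 and SH replicate 3. That of Trp53 became 0.0354, 0.0390 and 0.0535 without UN replicate 3, SN replicate 2 and SH replicate 2. The causes were not tested. Depth is unknown, so it cannot be said which differences of low genes such as Rb1 and Tbx2 the counts could resolve.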
